A study of Mus musculus with 4 samples.

Results

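The eIF4G family supplies the scaffolds on which translation of most mRNAs is started, and it is described here in tibialis anterior, a leg muscle, of Dmd Dup2 mice. The members were Eif4g1 (NM_001005331), Eif4g2 (NM_013507) and Eif4g3 (NM_172703), taken by symbol from a deposited table of 1000 genes, so 3 of 1000 listed genes. In Dup2 mice exon 2 of Dmd, the dystrophin gene, is present in an extra copy, and all 4 libraries come from this genotype. The untreated control libraries were set against libraries of muscle treated with scAAV9.U7-ACCA, an adeno-associated viral vector (serotype 9, self-complementary genome) whose U7 small nuclear RNA makes the splicing machinery skip an exon. For each condition there was 1 mRNA library and 1 library of ribosome footprints, the mRNA fragments that ribosomes cover. The sources used here do not state the number, age or sex of the animals, any pooling or the time since treatment.

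A new mRNA is translated once its cap is bound by eIF4E, which docks on the N-terminal part of an eIF4G scaffold. The scaffold also holds the RNA helicase eIF4A, the poly(A)-binding protein and eIF3, which brings in the small ribosomal subunit. Eif4g1 encodes the main scaffold and Eif4g3 a close relative with the same arrangement. Eif4g2, also called DAP5, encodes a shorter relative without the eIF4E-binding part, which supports initiation that does not need the cap-binding protein and is itself translated from a GUG start codon. In skeletal muscle, insulin and amino acids act through the kinase mTOR to free eIF4E, so that more of it joins eIF4G.

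Each condition had 1 library of each kind, so no value below has a replicate check and no test between conditions was possible. The listed genes held 125236 reads in untreated mRNA, 4248818 in treated mRNA, 3349015 in untreated footprints and 1664122 in treated footprints. They are deposited in falling order of untreated mRNA reads: 0 of 999 steps between rows rise in that library, against 497 in treated mRNA. The lowest untreated mRNA count is 14, so genes with fewer such reads are absent. Untreated mRNA is also the denominator of each mRNA ratio, so shares, ranks and medians below describe the listed genes only. Intervals are 95% intervals of counting error only, and reads carried no molecular identifiers. Markers of muscle fibres, 13 of 14 listed, held 42.0% of mRNA reads untreated and 55.5% treated, with 39.1% and 42.9% of footprints in the same order. The 7 listed of 17 macrophage markers held 0.209% of mRNA reads untreated and 0.0519% treated, and 0.334% and 0.152% of footprints. The 13 listed of 15 fibroblast and matrix markers held 2.54% and 0.394% of mRNA reads, and 3.50% and 0.757% of footprints. For immature or regenerating fibre, 5 of 11 markers were listed, with 5.73% and 2.95% of mRNA reads and 8.36% and 7.18% of footprints. With the TMM scaling used below, the median log2 ratio of these 5 was -0.20 in mRNA and -0.06 in footprints. All genes compared had medians of 0.06 and -0.02. Marker shares are unscaled, and on unscaled shares of listed reads the median gene itself had a log2 mRNA ratio of -0.60. For endothelial and smooth muscle cells, 2 of 8 were listed, with 0.0671% and 0.0305% of mRNA reads and 0.343% and 0.267% of footprints. No marker of red blood cells (0 of 7) or of nerve and Schwann cells (0 of 6) is in the table. In whole muscle, fewer cells of a type and less RNA per cell cannot be told apart, and the part of these cell types in the values below was not tested.

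All members had more mRNA in the treated library, from 3.99-fold for Eif4g1 to 5.71-fold for Eif4g2. Eif4g1 had 47 mRNA reads untreated and 4038 treated, or 299.96 (220.4 to 399) and 1195 (1159 to 1233) CPM over the listed genes after scaling with TMM, which sets the libraries to a common level over the listed genes. The treated level was 3.99-fold higher (2.99 to 5.43). Eif4g2 had 44 and 5412 reads, or 281 (204 to 377) and 1602 (1560 to 1645) CPM, 5.71-fold higher (4.24 to 7.86). These counting intervals of untreated and treated levels do not overlap for either gene, and how many listed genes share this was not counted.

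Eif4g3 had 16 mRNA reads untreated and 1607 treated, or 102 (58.4 to 166) and 476 (453 to 499.6) CPM, 4.66-fold higher (2.86 to 8.17). Its untreated count stands close to the lowest in the table, 14 reads, and its interval is the widest of the family. A gene counts as higher or lower here when the difference was at least 1.5-fold, the interval left out 1 and the pair of libraries held at least 50 reads. All 3 members were higher in mRNA by this rule, against 31.8% of the listed genes that could be compared. From the highest ratio downwards, Eif4g2 stood at place 15, Eif4g3 at 36 and Eif4g1 at 56 of 996 genes. For each member TMM gave the highest mRNA ratio of the 6 library scalings compared here. The lowest, with the constants of the deposited normalized values, were 2.16 for Eif4g1, 3.10 for Eif4g2 and 2.53 for Eif4g3.

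**Figure D1:**
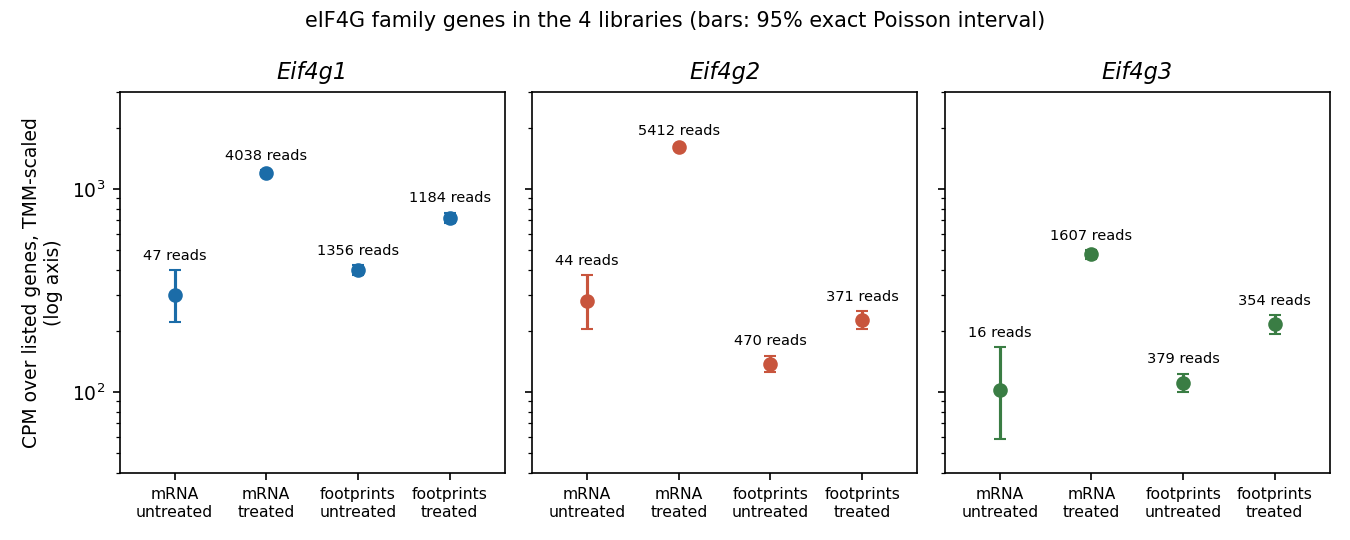
CPM over the listed genes after TMM scaling (log axis) of each family member in the 4 libraries, 1 library per point, with 95% exact Poisson intervals and the raw reads printed above. In every panel the treated library lies above the untreated one of the same kind, and the gap is wider in mRNA than in footprints.

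Footprints of the family were also higher in the treated library, by less. Eif4g1 had 1356 footprint reads untreated and 1184 treated, or 398 (377 to 420) and 719.7 (679 to 762) CPM, 1.81-fold higher (1.67 to 1.96). Eif4g2 had 470 and 371, or 138 (126 to 151) and 226 (203 to 249.7), 1.63-fold higher (1.42 to 1.88). Eif4g3 had 379 and 354, or 111 (100.4 to 123) and 215 (193 to 239), 1.93-fold higher (1.67 to 2.24). Raw footprint reads are lower in the treated library because that library is the shallower of the pair.

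The counting intervals of the scaled levels do not overlap between conditions for any member, and how many listed genes share this was not counted. The rule of at least 1.5-fold called 3 of 3 higher, against 19.9% of genes compared. The fold is close to the threshold of 1.5, so these calls depend on the scaling. With the constants that turn the deposited counts into the deposited normalized values, the footprint ratio was 1.497 (1.38 to 1.62) for Eif4g1 and 1.35 (1.18 to 1.55) for Eif4g2, neither of which reaches the threshold, and 1.60 (1.38 to 1.86) for Eif4g3, which does.

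The ratio in footprints over that in mRNA, called translation efficiency below, was under 1 for every member. It was 2.18-fold lower (1.62 to 2.93) in treated muscle for Eif4g1, 3.45-fold lower (2.49 to 4.78) for Eif4g2 and 2.34-fold lower (1.41 to 3.88) for Eif4g3. All 3 were thus called lower, against 31.9% of genes compared. With the listed totals the call ended for Eif4g1, at 1.43-fold lower, and for Eif4g3, at 1.53-fold lower with an interval that held 1. With the deposited constants it ended for the same pair, at 1.43-fold and 1.53-fold lower, while Eif4g2 was still 2.26-fold lower under each of these settings.

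Scaling moved every gene together, so the members are also given against the median listed gene, a difference that no scaling changes. In mRNA, Eif4g1 lay 1.94, Eif4g2 2.45 and Eif4g3 2.16 log2 units above the median gene. In footprints they lay 0.87, 0.73 and 0.97 log2 units above it. In translation efficiency they lay below it, at -1.02, -1.68 and -1.12 log2 units. The median gene itself was at a log2 mRNA ratio of 0.06 with TMM, -0.60 with the listed totals and -0.82 with the deposited constants.

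**Figure D2:**
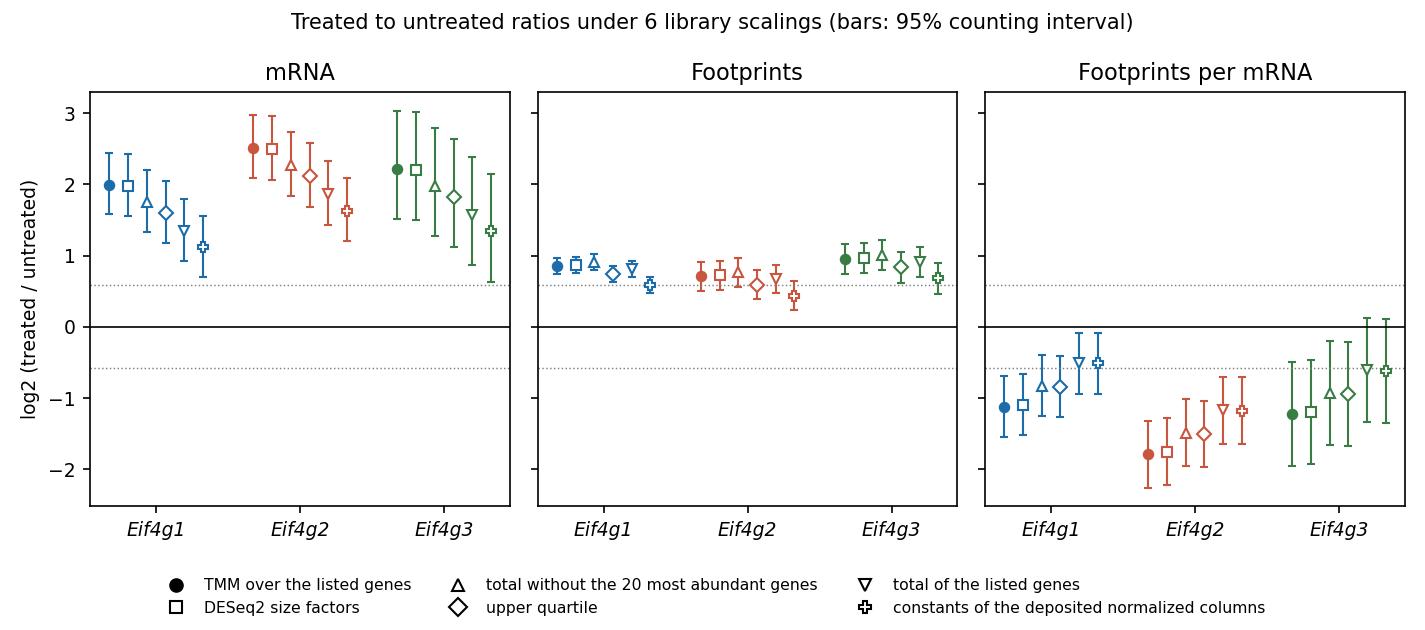
Treated to untreated log2 ratios of the members in mRNA, in footprints and in footprints per mRNA under 6 library scalings, with 95% counting intervals; dotted lines mark 1.5-fold. The mRNA and footprint values stay above 0 and the translation efficiency values below 0 under all 6, while some footprint and translation efficiency values move inside the dotted lines with the deposited constants or the listed totals.

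Reads of one member per read of another need no scaling, and they compare the members with each other. Per mRNA read of Eif4g1, Eif4g2 had 0.936 (0.606 to 1.44) untreated and 1.34 (1.29 to 1.40) treated, a change of 1.43-fold (0.949 to 2.16). In footprints the same ratio was 0.347 (0.311 to 0.385) untreated and 0.313 (0.278 to 0.352) treated, a change of 0.904-fold (0.773 to 1.06). Both intervals of the change hold 1, so a shift between these members was not detectable at this depth.

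Eif4g3 had 0.340 (0.180 to 0.611) and 0.398 (0.375 to 0.422) reads per read of Eif4g1 in untreated and treated mRNA, and 0.279 (0.249 to 0.313) and 0.299 (0.265 to 0.337) in footprints. The changes were 1.15-fold (0.653 to 2.01) and 1.07-fold (0.908 to 1.26). Between Eif4g2 and Eif4g3 the ratio was 2.75 (1.52 to 5.22) and 3.37 (3.18 to 3.56) in mRNA and 1.24 (1.08 to 1.42) and 1.05 (0.904 to 1.22) in footprints, a change of 1.248-fold (0.708 to 2.20) and 0.845-fold (0.693 to 1.03). All of these intervals of change hold 1 as well. For mRNA they are wide, so a change of close to 2-fold between the members would still lie within them.

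**Figure D3:**
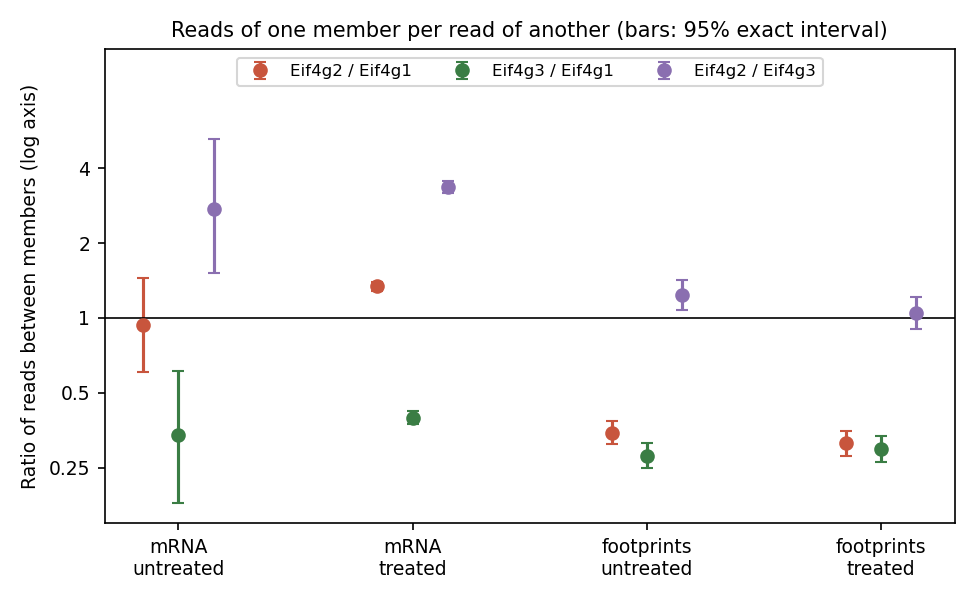
Reads of one member per read of another in each library (log axis), with 95% exact intervals. For each pair the untreated and treated intervals of footprints overlap, and those of mRNA overlap too, while footprint ratios of the pairs with Eif4g2 lie below the mRNA ratios.

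Eif4g2 carried fewer footprints per mRNA read than its relatives in both conditions. In untreated muscle it had 0.486 (0.357 to 0.679) times the footprints per mRNA read of the median listed gene, and 12.9% of the listed genes lay below it. In treated muscle it had 0.142 (0.128 to 0.158) times the median, with 3.5% of genes below. Set against Eif4g1 this value was 0.370 (0.243 to 0.565) in the untreated and 0.234 (0.207 to 0.265) in the treated pair of libraries, and against Eif4g3 it was 0.460 (0.257 to 0.822) and 0.311 (0.266 to 0.364). No interval of these 4 comparisons reaches 1. Footprints come from the coding part of an mRNA and mRNA reads from its whole length, so the share of each transcript that is coding enters these values.

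Eif4g1 stood at 1.31 (0.982 to 1.80) times the median gene in untreated muscle, with 68.7% of genes below, and at 0.608 (0.569 to 0.649) times in treated muscle, with 27.7% below. Eif4g3 stood at 1.08 (0.656 to 1.91) times, with 56% below, and at 0.457 (0.406 to 0.513) times, with 19.6% below. These members were thus near the middle of the listed genes untreated and in the lower part treated. Relative to Eif4g1, Eif4g3 had 0.805 (0.455 to 1.43) and 0.752 (0.659 to 0.858) times the footprints per mRNA read. Levels of different members were not compared otherwise, since no transcript or protein length was used here.

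The family was set beside the other genes of translation initiation, of which 17 are in the table, from a list of 60. Members of the family held 107 of the initiation reads in untreated mRNA, 21.5% (95% exact binomial interval 18.0 to 25.4) of the family and these 17 genes together. In treated mRNA they held 11057 reads, or 50.8% (50.1 to 51.4). In footprints the share was 21.0% (20.2 to 21.8) untreated and 29.8% (28.7 to 30.9) treated. These shares need no library scaling, and the intervals of untreated and treated libraries do not overlap in either kind of library.

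The family held the 3 highest mRNA ratios among these 20 genes. The next was Pabpc4, which encodes a cytoplasmic poly(A)-binding protein, at 2.80-fold higher (1.81 to 4.61). Of the 17 others, 5 were higher and 0 lower in mRNA, with a median log2 ratio of 0.28 against 0.06 over all genes compared. In footprints 3 were higher and 1 lower, with a median of -0.14 against -0.02. In translation efficiency 2 were higher and 4 lower, with a median of -0.12 against -0.11. With the deposited constants, 0 of the 17 were higher and 7 lower in mRNA, while the whole family was still higher. Over all 996 genes compared, 110 were higher and 543 lower in mRNA with these constants. With TMM scaling, 31.8% of all genes compared were higher and 24.8% lower in mRNA. The shares higher and lower were 19.9% and 26.2% in footprints, and 26% and 31.9% in translation efficiency.

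Direct partners of the scaffold did not share its pattern in full. Eif4a1 and Eif4a2 encode the helicase that eIF4G holds. Eif4a1, with 20 untreated and 522 treated mRNA reads, had an mRNA ratio of 1.21 (0.776 to 1.999) and a footprint ratio of 1.09 (0.969 to 1.22). Eif4a2, with 35 and 1110 mRNA reads, had an mRNA ratio of 1.47 (1.05 to 2.12), short of the threshold, and a footprint ratio of 0.870 (0.747 to 1.01), and its translation efficiency was 1.67-fold lower (1.16 to 2.40). Neither helicase gene had an mRNA or footprint call. The lower translation efficiency calls of Eif4a2, and of the poly(A)-binding proteins below, are with TMM scaling. Among the 17 other initiation genes such calls fell from 4 with TMM to 1 with the listed totals, and to 1 with the deposited constants.

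The poly(A)-binding proteins, which contact eIF4G and the mRNA tail, were called higher in mRNA with TMM scaling and had no footprint call. Pabpc4 had 20 and 1209 mRNA reads and a footprint ratio of 0.809 (0.662 to 0.984), with a translation efficiency 3.38-fold lower (2.09 to 5.44). Pabpc1 had 16 and 631 mRNA reads, an mRNA ratio of 1.83 (1.12 to 3.22), a footprint ratio of 0.798 (0.617 to 1.02) and a translation efficiency 2.22-fold lower (1.28 to 3.83). Paip2, which encodes an inhibitor of the poly(A)-binding protein, had ratios of 1.102 (0.670 to 1.95) and 1.07 (0.814 to 1.41). Among the listed genes of the cap-binding list, Ddx3x alone was called higher in both kinds of library with TMM scaling. Ddx3x encodes an RNA helicase that helps with structured leaders. Its mRNA was 1.93-fold higher (1.30 to 2.99) and its footprints 2.60-fold higher (2.33 to 2.89). With the total of the listed genes as the scale, the mRNA ratio was 1.22 (0.824 to 1.90) for Ddx3x and 1.16 (0.710 to 2.05) for Pabpc1, without a call, while Pabpc4 kept its call at 1.78 (1.15 to 2.93). With the constants of the deposited normalized columns Pabpc4 had no mRNA call either, at 1.52 (0.981 to 2.5002).

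Next come the factors that recruit the small subunit and find the start codon. Among 7 listed eIF3 subunits, 1 was higher and 0 lower in mRNA, against 31.8% and 24.8% of all genes compared. In footprints 0 were higher and 1 lower, against 19.9% and 26.2%. Eif3a and Eif3c, of its core, had mRNA ratios of 1.17 (0.882 to 1.58) and 0.806 (0.624 to 1.06) and footprint ratios of 0.975 (0.875 to 1.09) and 0.810 (0.724 to 0.904). Eif3h was the subunit higher in mRNA, at 1.75-fold (1.04 to 3.23), a call that ended with the total of the listed genes, at 1.11 (0.658 to 2.05), and Eif3b had a ratio of 1.47 (0.868 to 2.71). Eif3l, named after its value was seen, was the subunit lower in footprints, at 1.71-fold (1.38 to 2.13). In translation efficiency 1 subunit was higher and 1 lower, against 26% and 31.9%. The higher one was Eif3g, also named after its value was seen, at a ratio of 1.99 (1.14 to 3.45). Its mRNA ratio, 0.575 (0.340 to 1.05), was the lowest of the 17 other initiation genes.

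Of 4 listed genes for the initiator tRNA, start codon choice and subunit joining, Eif1, the start codon gatekeeper, was higher in both, at 1.62-fold (1.01 to 2.74) in mRNA and 2.04-fold (1.81 to 2.30) in footprints. Its mRNA had a call with TMM scaling only: with DESeq2 size factors the ratio was 1.59 (0.999 to 2.70), and under the other 4 scalings it was lower still. Eif2s3y, the Y-linked gene of the eIF2 gamma subunit, had an mRNA ratio of 0.911 (0.534 to 1.69) and was 1.72-fold higher (1.39 to 2.14) in footprints. Its translation efficiency was called higher, at a ratio of 1.96 (1.11 to 3.45). Its X-linked copy Eif2s3x had ratios of 1.28 (0.751 to 2.36) and 1.08 (0.873 to 1.34), and these near-identical copies can share reads. Eif5b, which joins the ribosomal subunits, had ratios of 0.853 (0.583 to 1.30) and 0.894 (0.749 to 1.06).

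**Figure D4:**
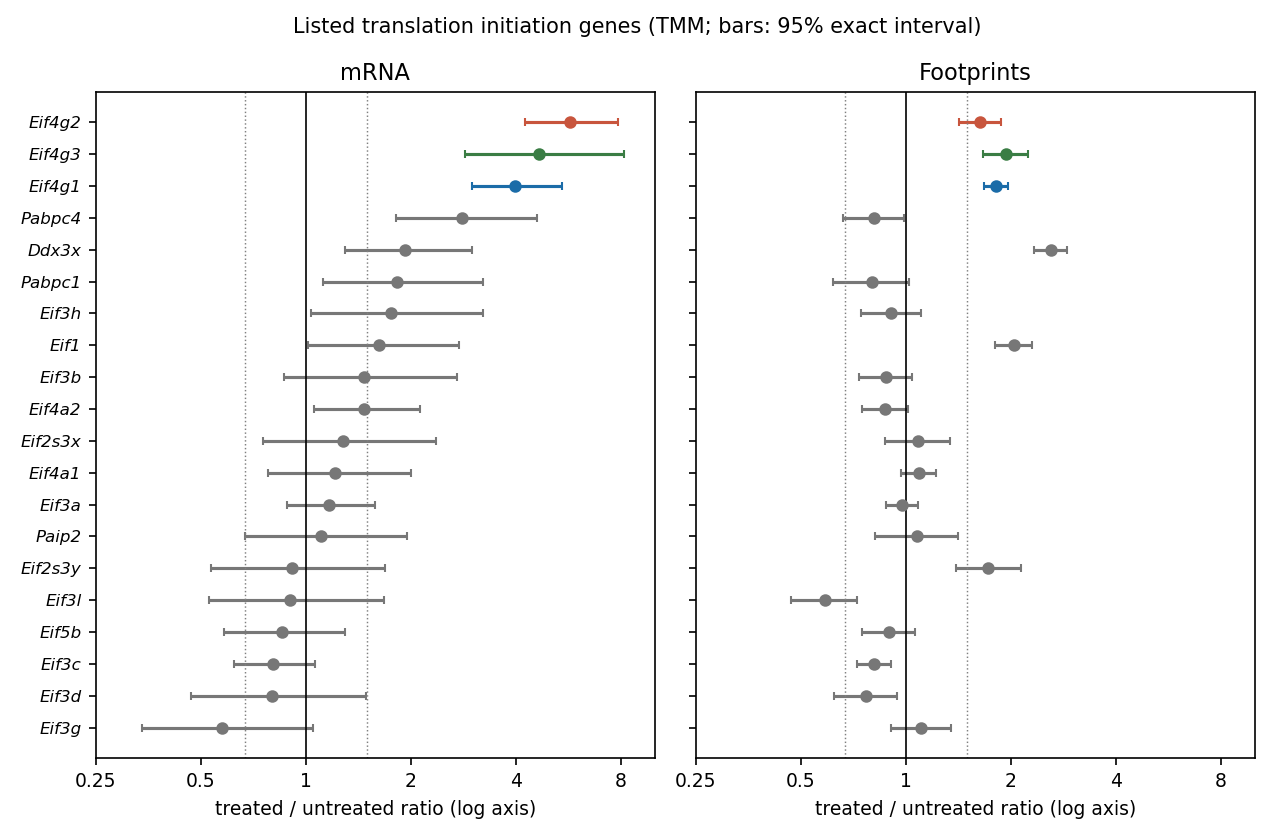
Treated to untreated ratios (log axis) in mRNA and in footprints of the family, in colour, and of the 17 other listed initiation genes, in grey, ordered by mRNA ratio, with 95% exact intervals; dotted lines mark 1.5-fold. The family takes the top 3 places in mRNA, while in footprints Ddx3x and Eif1 have higher ratios than every member. Eif2s3y has a higher footprint ratio than Eif4g2 alone of the family, and most other genes lie close to 1.

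Of 21 genes upstream of initiation, 2 are in the table. Mtor, the kinase itself, had ratios of 1.18 (0.705 to 2.13) in mRNA and 1.17 (0.95003 to 1.45) in footprints. With TMM scaling Ddit4l, an inhibitor of mTOR signalling, was 1.74-fold higher (1.13 to 2.82) in mRNA, with a footprint ratio of 0.804 (0.654 to 0.984). Its translation efficiency was 2.11-fold lower (1.31 to 3.38). The listed totals shift every mRNA ratio by the same factor, and with them Eif3h, at 1.75 with TMM, stood at 1.11 without a call. Of 8 other proteins with the MIF4G domain that gives the family its fold, 0 are in the table.

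Among 6 listed elongation and termination factors, 0 were higher and 5 lower in footprints, against 19.9% and 26.2% of all genes compared, and 0 were higher and 4 lower in translation efficiency, against 26% and 31.9%. Eef2, which moves the ribosome along the mRNA, was 2.09-fold higher (1.78 to 2.48) in mRNA and 2.55-fold lower (2.35 to 2.76) in footprints, with a translation efficiency 5.31-fold lower (4.43 to 6.36). Eef1a1, which delivers aminoacyl tRNA, was lower in both, at 2.08-fold (1.87 to 2.31) and 2.19-fold (2.05 to 2.33). Its muscle form Eef1a2 had ratios of 1.16 (1.02 to 1.32) and 0.790 (0.750 to 0.831), and Eef1g, of the exchange factor, 0.711 (0.579 to 0.883) and 0.378 (0.322 to 0.441). In mRNA, 2 of these 6 were higher and 1 lower, against 31.8% and 24.8%.

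The family's pattern was shared by genes outside translation. Higher mRNA, higher footprints and lower translation efficiency together occurred with TMM scaling in 34 of 995 genes that could be compared, or 3.42%. This combination was taken from the calls of the members, so the family is among the 34 by construction. With the listed totals Eif4g2 alone of the family kept every call, and with the deposited constants no member did. By the distance between pairs of mRNA and footprint log2 ratios, over 4 libraries and among genes outside the family, the gene nearest to Eif4g1 and to Eif4g3 was Usp15, a deubiquitinase, at 0.12 and 0.14 log2 units. Its mRNA was 4.34-fold higher (2.62 to 7.77) and its footprints 1.81-fold higher (1.60 to 2.06). Srrm2, a scaffold of nuclear speckles, was second for both, at 4.18-fold (3.13 to 5.72) and 1.97-fold (1.79 to 2.16).

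For Eif4g1 the next were Ano5, a muscle membrane protein, at a distance of 0.18, and Klhl31, a Kelch protein of muscle, at 0.20. For Eif4g2 the nearest was AI314180, at 0.03, with mRNA 5.61-fold (3.85 to 8.53) and footprints 1.62-fold (1.43 to 1.82) higher. Cmya5, which encodes the large muscle protein myospryn, followed at 0.18, then Dcaf6, a ubiquitin ligase adaptor, at 0.21 and Golga4, a golgin, at 0.25. Among these genes Cmya5 and Dcaf6 also followed Srrm2 for Eif4g3, at 0.22 and 0.27. The members themselves lay 0.25 (Eif4g1 and Eif4g3), 0.38 (Eif4g2 and Eif4g3) and 0.54 (Eif4g1 and Eif4g2) apart.

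Genes of very large proteins were set beside the family, since Eif4g1 and Eif4g3 themselves encode large proteins. In a list of 33 such genes, drawn up after the data were seen, 24 are in the table. Of these, 21 were higher and 0 lower in mRNA, against 31.8% and 24.8% of all genes compared, with a median ratio of 2.76 and a range from 0.901 to 7.93. Calls of this list were counted with TMM scaling only, which gave every family member its highest mRNA ratio. In footprints 12 were higher and 1 lower, against 19.9% and 26.2%, with a median ratio of 1.40. In translation efficiency 0 were higher and 17 lower, against 26% and 31.9%, with a median ratio of 0.521. The members lie inside this spread: 2, 5 and 6 of the 24 genes had a higher mRNA ratio than Eif4g2, Eif4g3 and Eif4g1. Translation efficiency was lower still than that of Eif4g2 in 5 of them, and lower than that of Eif4g1 and of Eif4g3 in 11. Dmd, which the vector targets, is among the 24 and had their highest footprint and translation efficiency ratios, 4.74 and 1.32. Transcript length was not measured, and its part in the family's values was not tested.

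**Figure D5:**
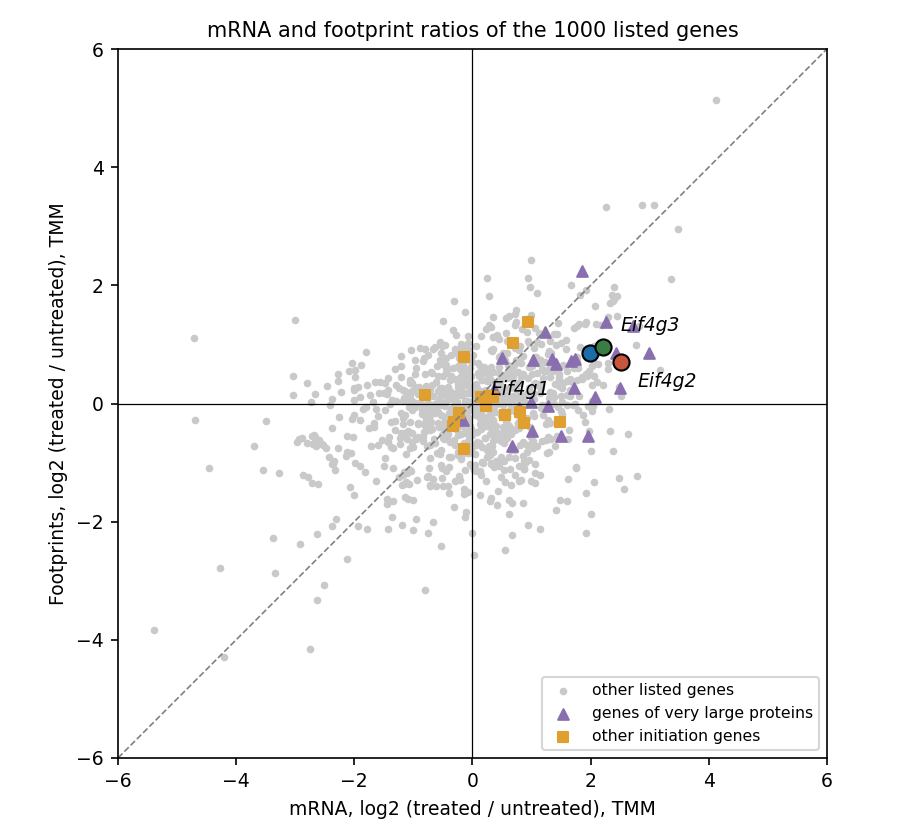
Log2 treated to untreated ratio in footprints against that in mRNA for the 1000 listed genes with TMM scaling, with the dashed line where both are equal. The family lies right of the dashed line, above 0 in both, next to genes of very large proteins, while most of the 17 other initiation genes lie nearer the centre.

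Depth also moved with these values. Genes with 14 to 19 untreated mRNA reads, as Eif4g3 has, had a median log2 mRNA ratio of 0.33, and 37.7% of them were higher in treated mRNA. Genes with 30 to 59 reads, as Eif4g1 and Eif4g2 have, had a median of -0.06, and 27.8% were higher. These classes are set by untreated mRNA reads, the denominator of the mRNA ratio. Each member lies above the median of its own class, at log2 ratios of 2.22, 1.99 and 2.51 for Eif4g3, Eif4g1 and Eif4g2. Dmd, the target of the vector, had 25 and 1959 mRNA reads and 80 and 183 footprint reads. Its mRNA ratio of 3.63 (2.45 to 5.63) was of the size of the family's, but its footprint ratio of 4.74 (3.62 to 6.24) was larger, and its translation efficiency ratio of 1.32 had an interval that held 1 (0.827 to 2.12).

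Promoter sequences are shown for Eif4g1 and Eif4g3, the members that a RefSeq table of mouse promoters holds. Eif4g2 has no window there. Eif4g1 was matched by its symbol rather than its RefSeq identifier, so its annotated start may not be that of the counted transcript. Any part of these sequences in the mRNA ratios was not tested. Each window has 300 bases, 250 before and 50 after an annotated start, in build GRCm38.p6. The window of Eif4g1 is chr16:20672477-20672776 and that of Eif4g3 is chr4:137993205-137993504, both on the + strand, and Eif4g3 has a second window shifted by 1 base that is not shown. The motif CACGTG, an E-box that reads alike on both strands, is in capitals.
Eif4g1: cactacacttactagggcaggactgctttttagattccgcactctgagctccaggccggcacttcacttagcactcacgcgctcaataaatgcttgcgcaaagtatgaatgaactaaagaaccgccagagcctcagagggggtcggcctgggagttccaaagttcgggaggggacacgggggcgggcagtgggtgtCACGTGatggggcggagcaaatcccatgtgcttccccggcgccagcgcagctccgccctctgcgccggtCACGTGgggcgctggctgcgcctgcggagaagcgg
Eif4g3: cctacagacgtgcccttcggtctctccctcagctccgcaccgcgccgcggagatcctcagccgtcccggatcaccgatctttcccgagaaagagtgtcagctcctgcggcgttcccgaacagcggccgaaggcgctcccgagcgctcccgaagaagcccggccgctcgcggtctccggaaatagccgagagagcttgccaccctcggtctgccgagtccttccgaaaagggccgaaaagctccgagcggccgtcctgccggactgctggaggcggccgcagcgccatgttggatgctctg
The window of Eif4g1 holds CACGTG at 2 places, starting at bases 197 and 266 of the window, and that of Eif4g3 at 0. Of 32851 windows in the table, 7.15% hold it. The GC box GGGCGG, searched on both strands, occurs 3 times for Eif4g1 and 0 times for Eif4g3, and 35.7% of all windows hold it. GC content is 62% and 67.3%, against a median of 52.7%. A match is a description of the letters in these windows alone, and the mRNA ratios of these members, given above, have overlapping intervals.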

How the data were processed

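Tibialis anterior muscle was homogenised with cycloheximide, per the labels' protocols, footprints were isolated from part of it, and stranded total RNA and small RNA kits gave 50 nt reads. The authors deposited whole-number read counts for 1000 genes. The normalized values, per the file headers, are each count times 1 constant per library (100% of genes within 0.1) and were read as CPM, a scale inferred from the values. The submitters' processing notes name Trimmomatic, STAR, edgeR and build mm9. The counting tool, strand setting and treatment of multi-mapping reads are not stated there.

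Ratios used the counts with TMM factors (edgeR 4.0.16, R 4.3.3). Intervals are exact conditional binomial for mRNA and footprints, and normal on the log scale with 0.5 added to each count for translation efficiency and changes between members (scipy 1.17.1). With 1 library per group edgeR's quasi-likelihood test could not be fitted, so no p-value is given. The code was checked on simulated counts. Of 1000 RefSeq identifiers 996 matched a RefSeq gene table (GRCm38.p6). That of Eif4g1 did not and was matched by symbol. Members and lists were chosen with earlier results of these data known. Genes named are the members, Dmd, the listed cap-binding partners, up to 4 genes with the most reads of each other list, and the 4 genes nearest to each member. Eif3l and Eif3g were named besides, after their values were seen. Alternatives were 5 other scalings, 5 added to each count, no minimum or 200 reads, and a 2-fold threshold. Columns of samples outside this series numbered 0.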

Additional observations from a re-analysis of the deposited data

How the results depend on the processing

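With 1 library per group, precision is set by counting, above all by 16 to 47 untreated mRNA reads per member. The mRNA ratios of all 3 members passed the threshold under all 5 other scalings, from 2.16 to 3.93 for Eif4g1, 3.10 to 5.62 for Eif4g2 and 2.53 to 4.59 for Eif4g3. With the deposited constants the log2 footprint ratio was 0.58 for Eif4g1 and 0.44 for Eif4g2, under the threshold. The log2 translation efficiency ratio lost its call for Eif4g1 and Eif4g3 with the listed totals (-0.51 and -0.61) and with the deposited constants (-0.52 and -0.61). The cause is the construction: each scaling shifts all genes by 1 value. No member changed direction.

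Among the 17 other initiation genes, the TMM calls were 5 higher and 0 lower in mRNA, 3 and 1 in footprints, and 2 and 4 in translation efficiency. In mRNA, calls higher and lower became 1 and 4 with the listed totals, 1 and 3 with the upper quartile, 2 and 1 without the 20 most abundant genes of each library, and 0 and 7 with the deposited constants. In footprints, the lower calls became 3 with the deposited constants. In translation efficiency, calls higher and lower became 6 and 1 with the listed totals and with the deposited constants, and lower calls 2 with the upper quartile and 2 once the 20 most abundant genes were dropped. At a 2-fold threshold 1 was higher in mRNA and 0 lower in footprints, with 0 higher and 2 lower in translation efficiency.

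Over all genes, calls higher in mRNA numbered 317 under TMM, 205 with the upper quartile, 148 with the listed totals and 110 with the deposited constants. Calls lower numbered 247 under TMM, 464 under the listed totals, 543 with the deposited constants and 160 with a minimum of 200 reads. Footprint calls, 199 higher and 262 lower, became 114 higher with the deposited constants, and 81 higher and 143 lower at 2-fold. Translation efficiency calls, 259 higher and 317 lower, became 444 and 157 with the listed totals and 444 and 158 with the deposited constants. Genes higher made up 56.2% of mRNA calls under TMM and 24.2% under the listed totals, 35.7% with the upper quartile, 43.7% once the 20 most abundant genes were dropped and 16.8% with the deposited constants. In footprints this share was 43.2% with TMM and 23.8% with the deposited constants, and in translation efficiency 45.0% with TMM and 73.9%, 59.97%, 60.7% and 73.8% in the same 4 settings. With 5 added to each count it was 56.6%, and with a minimum of 200 reads 66.5% in mRNA.

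Adding 5 to each count, chosen after seeing the data for the ratios between members, made no call there. The calls of single initiation genes under each scaling were also set out after seeing the data. The planned centring on genes of like protein length and the ratio per codon were not run, since no protein lengths were used here. No paired analysis was possible because each group has 1 library.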
